A study of Homo sapiens with 66 samples.

Results

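Expression was examined for 8 genes of the S100 calcium-binding protein family, S100A4, S100A6, S100A8, S100A9, S100A10, S100A11, S100A12 and S100P, out of 57992 genes counted. They were chosen by gene symbol, with earlier results of these data known. RNA was sequenced from 11 human acute myeloid leukemia (AML) cell lines, which the labels write as F36P, HL60, KASUMI1, MOLM13, MONOMAC6, MV411, NB4, NOMO1, OCIAML2, OCIAML3 and THP1. Each was kept untreated, in medium alone, or was exposed for 24 h to etoposide, a topoisomerase II poison, at the concentration that the study set as the IC50 of that cell line, so that the dose differs between cell lines. Serum content and supplements of the medium also differed between cell lines. F36P was given granulocyte-macrophage colony stimulating factor, and MONOMAC6 was given insulin, pyruvate and amino acids. Effects of the medium on untreated levels cannot be told apart from those of the cell line. Each of the 22 groups has 3 libraries, labelled as replicates, which makes 66 in all, and each RNA was isolated from 3 pooled wells. The study discarded its etoposide-treated OCIAML2 libraries for their read quality, and these were therefore kept out of every total over the other 10 cell lines.

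S100 proteins are small EF-hand proteins that mostly act as dimers and change shape when they bind calcium. S100A8 and S100A9 pair into calprotectin, an abundant cytosolic complex of neutrophils and monocytes that is released as a danger signal and is sensed by TLR4 and by AGER, the receptor RAGE. In the myeloid lineage both genes are known as markers of maturing cells, and S100A12 is another RAGE ligand of granulocytes and monocytes. S100P binds ezrin and is also sensed by RAGE. S100A4 binds non-muscle myosin IIA, the product of MYH9, S100A10 pairs with annexin A2 and has lost calcium binding, S100A11 pairs with annexin A1, and S100A6 binds several annexins.

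The members lie in 2 places of the genome on GRCh38. Of the 8 genes, 7 are on chromosome 1, within the S100 gene cluster, and S100P is on chromosome 4 (6693878 to 6697170, plus strand). S100A9 (153357854 to 153361023, plus strand), S100A12 (153373711 to 153375621, minus strand) and S100A8 (153390032 to 153391073, minus strand) are direct neighbours, with gaps of 12.7 kb and 14.4 kb and no other protein-coding gene between them. S100A6 (153534599 to 153536244) and S100A4 (153543613 to 153550136) are 7.37 kb apart with S100A5 between them. S100A10 (151982915 to 151993859) and S100A11 (152032506 to 152047907) are 38.6 kb apart and lie 1310 kb from S100A9. All 4 of these are on the minus strand. In the gene model of S100A6, 37 bases of exon overlap an antisense transcript that has 13 reads over all 66 libraries, and the other members share no exon bases with another gene.

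The 150 bases before the RefSeq start (build GRCh38.p14) were searched for 4 short motifs, on both strands. These were TATAAA, the core of a TATA box, TTGCNNAA, which C/EBP factors can bind, GAGGAA, a PU.1 core, and TGANTCA, an AP-1 site. The sequences of S100A8, S100A9 and S100P, the members that rose in the most cell lines, are shown with S100A4 and S100A12, whose windows also hold TATAAA. Each is written in the direction of transcription and ends at the base before the start, with motif matches in capitals.
S100A8, chr1:153391074-153391223, minus strand: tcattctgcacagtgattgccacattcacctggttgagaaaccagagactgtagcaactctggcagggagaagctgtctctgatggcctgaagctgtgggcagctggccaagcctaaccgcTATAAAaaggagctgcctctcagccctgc
S100A9, chr1:153357704-153357853, plus strand: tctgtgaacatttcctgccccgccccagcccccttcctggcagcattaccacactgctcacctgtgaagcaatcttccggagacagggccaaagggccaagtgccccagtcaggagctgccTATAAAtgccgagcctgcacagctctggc
S100P, chr4:6693728-6693877, plus strand: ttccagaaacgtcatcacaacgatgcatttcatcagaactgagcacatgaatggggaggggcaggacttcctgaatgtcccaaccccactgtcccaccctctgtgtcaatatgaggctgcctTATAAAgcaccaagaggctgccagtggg
S100A4, chr1:153545807-153545956, minus strand: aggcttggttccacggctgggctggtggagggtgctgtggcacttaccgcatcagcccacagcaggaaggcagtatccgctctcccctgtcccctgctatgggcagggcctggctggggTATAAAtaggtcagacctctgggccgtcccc
S100A12, chr1:153375622-153375771, minus strand: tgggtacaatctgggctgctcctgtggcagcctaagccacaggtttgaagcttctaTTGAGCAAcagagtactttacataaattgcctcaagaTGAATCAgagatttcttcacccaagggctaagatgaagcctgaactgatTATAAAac

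In S100A8 and S100A9 the match to TATAAA covers bases 29 to 24 before the start, in S100P bases 28 to 23 and in S100A4 bases 31 to 26. In S100A12 it lies closer, at bases 8 to 3. S100A12 also has a match to the C/EBP letters, TTGAGCAA read on the other strand, and to the AP-1 letters, and S100A11 has a C/EBP match (TTGGGCAA). Of all 35116 RefSeq windows of this length, 6.71% hold TATAAA on either strand, 5.02% the C/EBP letters, 14.8% GAGGAA and 4.17% the AP-1 letters. No match to these letters was found in the windows of S100A6 and S100A10. A match describes the letters only and is no evidence of binding.

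Reads on genes ranged from 17997404 to 24101670 per library (median 20241014). The median r of a library with the others of its group was at least 0.989 in log expression, and single pairs can lie lower. Where a gene had no read in 3 untreated libraries, 3 reads set an upper limit of 0.0479 to 0.0520 CPM, the reads of a gene scaled to a common library size, which covers counting error only. CDKN1A, the p53 target that checks the treatment, rose in 10 of 10 cell lines, from a log2 fold change of 1.86 in MV411 to 5.46 in OCIAML3. MDM2, another p53 target, was induced in 3 of 10, MOLM13 (1.84), MV411 (1.11) and OCIAML3 (2.59). Of 7 myeloid markers (PTPRC, CD33, SPI1, LYZ, CEBPA, MPO, CSF3R), each had reads in every cell line. F36P differs from the rest by erythroid markers, whose sum over 8 genes was 5833 to 7757 CPM in its untreated libraries and at most 33.9 CPM in those of any other cell line. Libraries came from whole cultures, in which fewer cells that express a gene and less RNA of it per cell cannot be told apart. P-values measure the spread between libraries of a cell line, and a cell line is a culture grown from 1 leukemia.

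Untreated cell lines fell far apart in the calprotectin genes. S100A9 was read at 1172, 1260.4 and 1240.1 CPM in the 3 MONOMAC6 libraries, at 478, 531 and 507 CPM in NOMO1 and at 427, 418 and 459 CPM in OCIAML2. In F36P it had 0, 0 and 0.0507 CPM. These 3 cell lines thus lie apart from all others, since THP1 follows with 32.3 CPM ± 5.20 (SD, n = 3), OCIAML3 with 16.4 ± 3.81, MOLM13 with 8.07 ± 2.27 and NB4 with 6.19 ± 1.90. KASUMI1 (1.09 ± 0.121), HL60 (0.465 ± 0.0243) and MV411 (0.270 ± 0.202) were near or below 1 CPM. Of the neighbours in this order, NOMO1 and OCIAML2 (FDR 0.162), MOLM13 and NB4 (FDR 0.0781) and HL60 and MV411 (FDR 0.290) did not pass edgeR's quasi-likelihood test. All other neighbours did. Among all 55 pairs of untreated cell lines, S100A9 was called different, with an FDR below 0.05 and a fold above 2, in 51 pairs, where 36% of all gene and pair tests were called.

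S100A8 kept nearly the same order. MONOMAC6 had 463, 458 and 469 CPM, NOMO1 had 189, 186 and 179 CPM and OCIAML2 had 90.9, 92.8 and 98.1 CPM, and no library of another cell line was above 21.8 CPM. THP1 (16.5 CPM ± 4.84, SD, n = 3), MOLM13 (9.82 ± 4.40) and OCIAML3 (7.45 ± 1.73) were intermediate, and MOLM13 did not pass against OCIAML3 (FDR 0.126). NB4 had 0.662 CPM ± 0.204, MV411 0.148 ± 0.127, HL60 0.0810 ± 0.140 and KASUMI1 0.0349 ± 0.0605, and F36P had no read in 3 libraries. MV411 and HL60, HL60 and KASUMI1, and KASUMI1 and F36P did not pass against each other (FDR 0.617, 0.619 and 0.386). S100A8 was called different in 46 of 55 pairs.

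S100A12 was restricted further. Its mean was 23.3 CPM ± 1.35 (SD, n = 3) in MONOMAC6, 5.85 ± 0.714 in OCIAML2 and 4.45 ± 0.707 in NOMO1, and each of these differed from the next (FDR at most 0.0475). THP1 had 0.388 CPM ± 0.240 and OCIAML3 0.144 ± 0.0448. MOLM13 had 1 read in its 3 untreated libraries, and F36P, HL60, KASUMI1, MV411 and NB4 had none. Over the 11 untreated cell lines, log2(CPM + 1) of S100A8 and S100A9 had a Pearson r of 0.98 and a Spearman rho of 0.95, and r was 0.96 without MONOMAC6 and NOMO1. For S100A12 with S100A9 these were 0.91, 0.94 and 0.85. The points share the libraries and the scaling, and the values are given as a description.

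S100P had an order of its own. OCIAML2 (28.4 CPM ± 1.74, SD, n = 3), NOMO1 (22.5 ± 1.97), F36P (22.2 ± 1.86), HL60 (21.0 ± 5.56) and NB4 (13.4 ± 1.65) were high. MONOMAC6 (1.95 ± 0.255), KASUMI1 (1.28 ± 0.165), MOLM13 (1.24 ± 0.351), MV411 (0.318 ± 0.156) and THP1 (0.201 ± 0.180) were low, with a log2 difference of 2.78 between NB4 and MONOMAC6 (FDR 2.98e-14), and OCIAML3 had no read. NOMO1 did not pass against F36P (FDR 0.914), nor F36P against HL60 (FDR 0.642), nor, among the low ones, MONOMAC6 against KASUMI1 (FDR 0.0519), KASUMI1 against MOLM13 (FDR 0.941) and MV411 against THP1 (FDR 0.367). F36P and HL60, which had little or no calprotectin RNA, were thus among the high ones, and MONOMAC6, the highest for S100A9, was not. The Pearson r of S100P with the other 7 members over cell lines lay between -0.51 (S100A11) and 0.20 (S100A12).

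**Figure D1:**
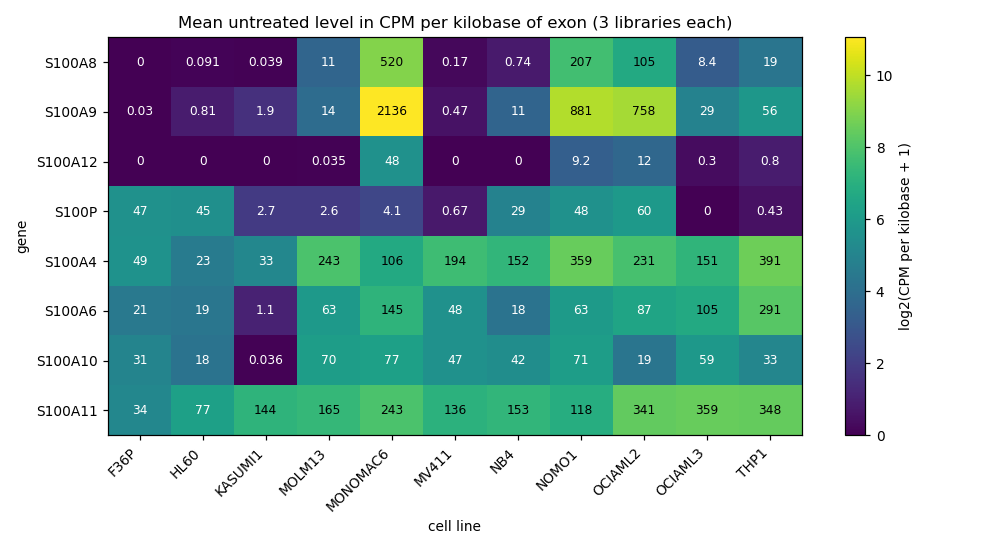
Mean level of each gene in the 3 untreated libraries of each cell line, in CPM per kilobase of exon (number in the cell; colour, log2 of the value plus 1). MONOMAC6, NOMO1 and OCIAML2 carry S100A9 at 758 to 2136 CPM per kilobase, while S100A4 is at least 22.9 and S100A11 at least 33.8 in every cell line.

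S100A4, S100A6 and S100A11 had reads in all 66 libraries. S100A4 ranged from 21.7 CPM ± 4.76 (SD, n = 3) in HL60 to 370 ± 45.8 in THP1, a 17.1-fold span, and THP1 did not pass against NOMO1 at 339 ± 27.6 (FDR 0.342). S100A11 had the narrowest span, 10.6-fold, from 21.9 CPM ± 2.17 in F36P to 233 ± 9.49 in OCIAML3. OCIAML3, THP1 (226 ± 8.16) and OCIAML2 (221 ± 4.21) did not pass against each other in the order (FDR 0.657 and 0.762). S100A6 was read at 249, 298 and 300.3 CPM in the 3 THP1 libraries and at 1.17, 0.995 and 0.996 CPM in KASUMI1. KASUMI1 lay below NB4, the next lowest cell line, by a log2 difference of 4.01 (FDR 8.30e-22), with no overlap of libraries. KASUMI1 also stood apart in S100A10, with 2 reads in its 3 untreated libraries (0.0369 CPM), while the other 10 cell lines ranged from 17.9 CPM ± 1.77 in HL60 to 77.7 ± 5.73 in MONOMAC6. The annexin partner of S100A10, ANXA2, was read at 101 CPM in untreated KASUMI1, and at 0.0189 CPM in HL60. Called pairs numbered 41 for S100A6, 34 for S100A4, 31 for S100A11 and 28 for S100A10, against 42 for S100P and 39 for S100A12.

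Levels of different genes were compared per kilobase of exon. The summed level of the 8 members ran from 182 CPM per kilobase in F36P to 3279 in MONOMAC6. S100A9 made up 65.1% of this sum in MONOMAC6, 50.2% in NOMO1 and 47.0% in OCIAML2. In the other 8 cell lines it held at most 4.95%, and the leading member was S100A4 in F36P, MOLM13, MV411 and THP1 or S100A11 in HL60, KASUMI1, NB4 and OCIAML3. In NB4, S100A11 (37.7%) and S100A4 (37.6%) were nearly equal. In F36P, S100P (25.9%) was close to S100A4 (27.2%), and these orders were not tested. In KASUMI1, where S100A6 and S100A10 were low, S100A11 alone made up 78.6%.

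For each member the 3 other genes with the most similar level over the 11 untreated cell lines were listed by Pearson r of log2(CPM + 1) among 13669 genes whose mean reached 1 CPM. PDGFRB (r = 0.96), BCL6 (0.95) and THSD4 (0.94) were nearest to S100A8, and DEFB1, THSD4 and PDGFRB (all 0.94 or 0.93) to S100A9. THSD4 was also nearest to S100A12 (0.96), followed by ASB2 and GPRIN3. S100A10 had CUL3 (0.95) and AHNAK (0.95), whose large scaffold protein is known to bind the S100A10 and annexin A2 complex, and CCNDBP1 (0.94). The Spearman rho of these genes was lower, at 0.67, 0.72 and 0.84, and S100A10 was far lower in KASUMI1 than in any other cell line. ERBIN, MYL12A and C1GALT1C1 came with S100A6, MT1F, CD70 and DCTN6 with S100A4, LYST, OGFRL1 and EIF4G3 with S100A11 (0.92 to 0.96 in these 3 lists), and ETV5 and PRKCI with S100P (0.91 and 0.90). With 11 points per gene, such lists are descriptions and carry no test.

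After etoposide, members rose in 26 of the 70 tests that the filter on low counts allowed over 10 cell lines (37.1%), at an FDR below 0.05 and a fold above 2. Over all genes in the same cell lines, 11.1% of tests were called induced and 3.96% repressed, and no member was called repressed. In 10 of these tests fewer than 3 untreated libraries reached the count minimum, so that the gene was tested through its etoposide libraries, and 8 of them were called. Of the other 60 tests, 18 were called (30%). S100A9 and S100P were each induced in 7 of 10 cell lines, S100A8 in 5 of 8, S100A6 in 3 of 10, S100A4 in 2 of 10, S100A11 in 1 of 10, S100A12 in 1 of 3 and S100A10 in 0 of 9. The calls made through etoposide libraries are S100A9 in F36P, HL60 and MV411, S100P in MV411, OCIAML3 and THP1, and S100A8 in KASUMI1 and MV411. Without such tests, S100A9 and S100P were each induced in 4 of 7 cell lines and S100A8 in 3 of 5. By FDR alone, 51 tests were higher and 4 lower, against 27.7% and 24.4% of all tests. The 10 tests left out concern S100A12 in 7 cell lines, S100A8 in F36P and HL60 and S100A10 in KASUMI1.

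**Figure D2:**
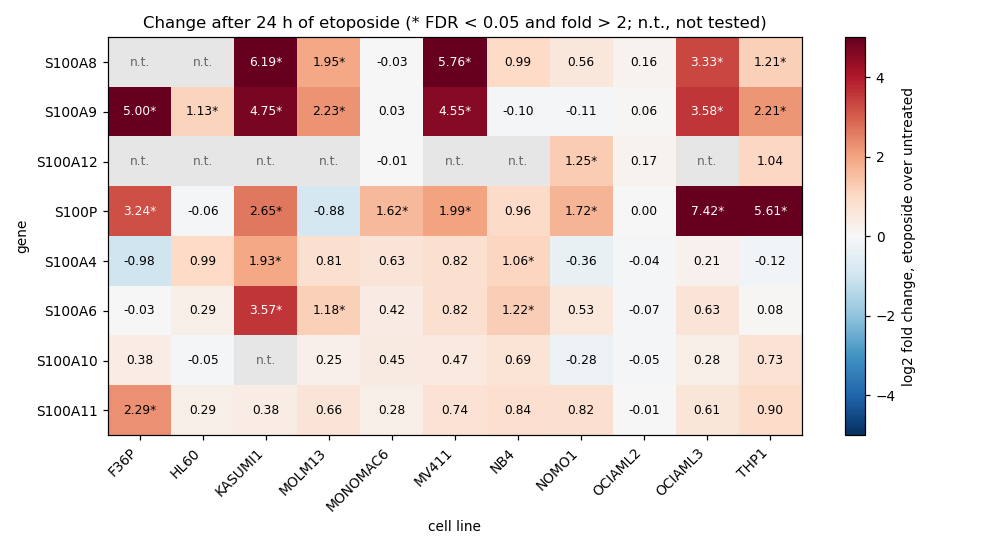
Log2 fold change of each member after 24 h of etoposide in each cell line, from edgeR with 3 libraries per condition (asterisk, FDR below 0.05 and fold above 2; n.t., removed by the filter on low counts). S100A9 and S100P carry 7 asterisks each, OCIAML2 none, and fitted values against groups with 0 to 3 untreated reads (S100P in OCIAML3, S100A8 in KASUMI1, S100A9 in F36P) depend on the prior count.

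By cell line, KASUMI1 had the most members induced, 5 of 6 tested (S100A4, S100A6, S100A8, S100A9 and S100P), where 14.6% of all genes were induced. F36P had 3 of 6 (S100A9, S100A11, S100P; all genes 24.3%), MOLM13 3 of 7 (S100A6, S100A8, S100A9; 8.59%), MV411 3 of 7 (12.5%), OCIAML3 3 of 7 (7.18%) and THP1 3 of 8 (6.38%). The calls in MV411, OCIAML3 and THP1 were for S100A8, S100A9 and S100P. In MV411 all 3 were tested through the etoposide libraries, as was S100P in OCIAML3 and THP1, S100A9 in F36P and HL60 and S100A8 in KASUMI1. Without these tests MV411 had 0 of 4, HL60 0 of 5, F36P 2 of 5, KASUMI1 4 of 5, and OCIAML3 and THP1 2 of 6 each, so the counts of these 6 cell lines are not read against the shares of all genes. NB4 had 2 of 7 (S100A4, S100A6; 13.2%), NOMO1 2 of 8 (S100A12, S100P; 8.34%), MONOMAC6 1 of 8 (S100P; 8.53%) and HL60 1 of 6 (S100A9; 5.34%). The median log2 fold change of the members tested was between 0.29 in HL60 and 3.11 in KASUMI1. Except in MOLM13, MONOMAC6 and NOMO1, it includes tests made through etoposide libraries. It is therefore not read against the median over all genes, which lay between -0.03 and 0.09. The member medians were the same with S100P in OCIAML3 set to its lower bound.

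S100A9 rose in 7 cell lines. In OCIAML3 it was read at 13.2, 15.3 and 21.0 CPM untreated and at 165, 152 and 274 CPM after etoposide (log2 fold change 3.58, standard error 0.26, FDR 2.62e-05). In THP1 it went from 27.3, 37.8 and 34.6 CPM to 126, 148 and 188 CPM (log2 fold change 2.21, standard error 0.16). The groups did not overlap in either cell line. In KASUMI1 the values were 0.965, 1.21 and 1.10 CPM against 25.7, 34.3 and 28.2 CPM (4.75, standard error 0.17, FDR 1.57e-07), in MV411 0.289 CPM ± 0.215 against 6.83 ± 0.696 (4.55) and in MOLM13 7.75 ± 2.19 against 36.4 ± 1.92 (2.23). F36P had 1 read of S100A9 in 3 untreated libraries and 50 after etoposide, a ratio of 50.8 with a 95% counting interval of 8.71 to 2046, and a level of only 0.808 CPM ± 0.305. HL60 rose from 0.499 CPM ± 0.0254 to 1.10 ± 0.476 (1.13, FDR 0.0354), and this call was lost without etoposide replicate 2, at 0.80 with an FDR of 0.148, without 4 of the other 5 libraries in turn and with DESeq2.

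The cell lines with the highest untreated S100A9 were not called. MONOMAC6 had 1218, 1312 and 1289.9 CPM untreated and 1253, 1312 and 1339 CPM after etoposide, with overlapping groups and a log2 fold change of 0.03 (standard error 0.04, FDR 0.535). NOMO1 went from 534, 591 and 568 CPM to 515, 554 and 504 CPM, which also overlap (-0.11, standard error 0.08, FDR 0.276). NB4, at 6.52 CPM ± 2.04 untreated and 6.03 ± 1.28 after etoposide, had an intermediate level and no call either (-0.10, standard error 0.21, FDR 0.696).

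S100A8 rose in 5 cell lines, in all of which S100A9 rose too. It was read at 5.70, 7.52 and 9.33 CPM in untreated OCIAML3 and at 68.6, 63.0 and 95.2 CPM after etoposide (log2 fold change 3.33, standard error 0.21), at 0.105, 0.0570 and 0.313 CPM against 9.49, 8.69 and 8.94 CPM in MV411 (5.76, standard error 0.27), and at 14.2, 8.01 and 6.09 CPM against 47.2, 31.5 and 30.9 CPM in MOLM13 (1.95, standard error 0.27). THP1 rose from 17 CPM ± 5.02 to 39.2 ± 9.54 (1.21, FDR 0.000144). In KASUMI1, 2 untreated reads stood against 197 after etoposide, a ratio of 96.5 with a 95% counting interval of 26.4 to 802. In none of these 5 cell lines did the groups overlap. NOMO1 was higher by FDR, from 211, 208 and 200.3 CPM to 234, 382 and 296 CPM, with a log2 fold change of 0.56 that is below the fold limit (FDR 0.00462). NB4 lay at the limit, with 0.99 (FDR 0.0255), and was called without untreated replicate 1 (1.17), without untreated replicate 2 (1.05), without etoposide replicate 3 (1.27) and when scaled by library size alone (1.19). MONOMAC6 had 482 CPM ± 5.32 untreated and 472 ± 11.8 after etoposide (-0.03, FDR 0.502). F36P had 0 and 3 reads and HL60 had 5 and 13 reads, and neither was tested.

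**Figure D3:**
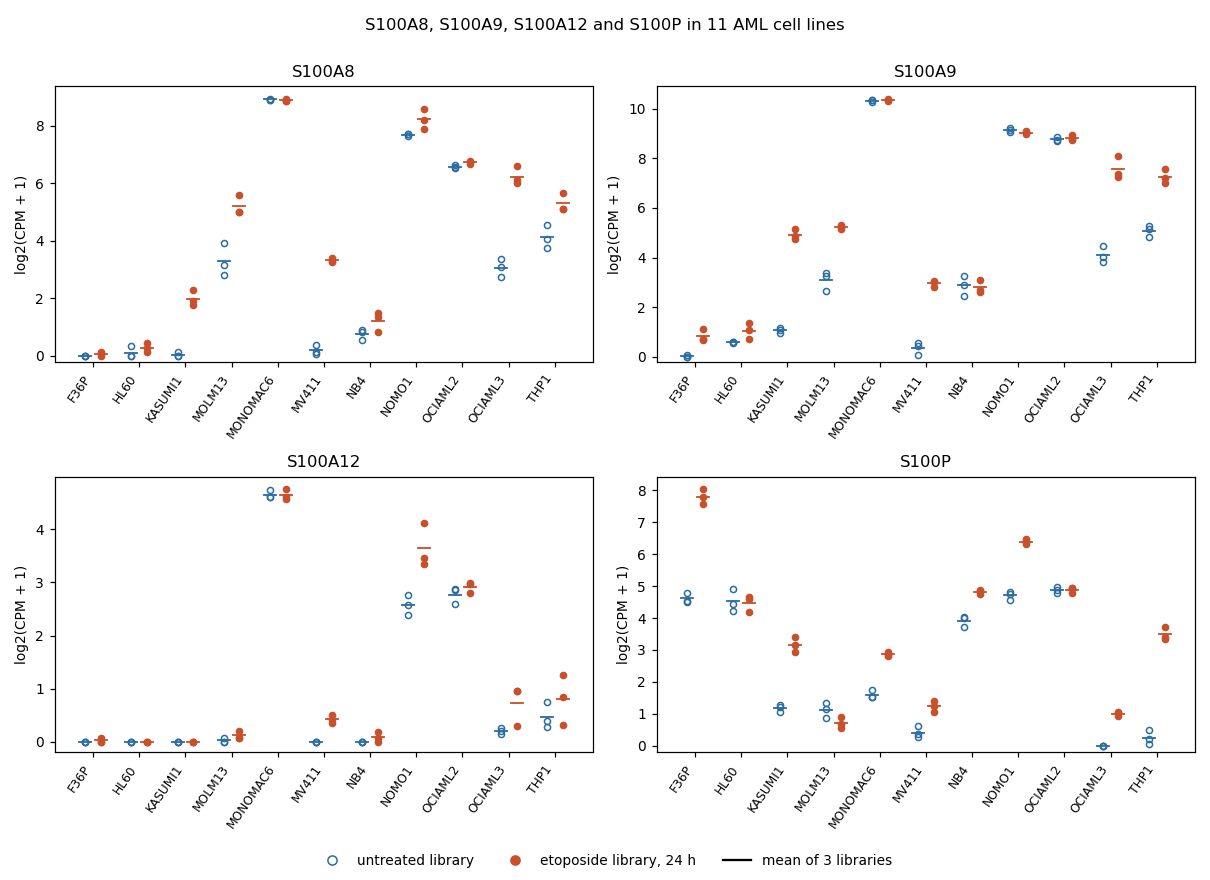
Level of S100A8, S100A9, S100A12 and S100P in each library as log2(CPM + 1), normalized within each cell line, with untreated (open) and etoposide-treated (filled) libraries side by side and bars at the mean of 3. S100A9 rises from 1.09 to 29.4 CPM in KASUMI1 and from 16.5 to 197 CPM in OCIAML3, and its groups overlap in MONOMAC6, NOMO1 and OCIAML2.

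S100P was induced in both high and low cell lines. F36P, already at 21.5, 22.4 and 26.7 CPM, reached 221, 259 and 188 CPM, the highest level of S100P in any group (log2 fold change 3.24, standard error 0.16, FDR 7.63e-07). NOMO1 went from 25.6, 22.7 and 27.2 CPM to 78.1, 87.6 and 82.5 CPM (1.72, standard error 0.10). THP1 went from 0.157, 0.412 and 0.0519 CPM to 9.25, 9.71 and 12.3 CPM (5.61, standard error 0.33), and OCIAML3 from 0 reads to 66 reads over 3 libraries, at least 20.8-fold higher when the untreated group is set to a floor of 3 reads. The groups overlapped in none of these 4 cell lines. KASUMI1 (2.65), MV411 (1.99) and MONOMAC6 (1.62) were induced as well, to levels between 1.38 and 8.06 CPM. NB4 was higher at 0.96 (FDR 5.99e-06), just under the fold limit. HL60, with 22.5 CPM ± 5.91 untreated and 21.5 ± 3.76 after etoposide, was not called (-0.06, FDR 0.811), and MOLM13 was the only cell line with a lower S100P by FDR, 1.19 CPM ± 0.337 against 0.649 ± 0.215 (-0.88, FDR 0.0417). That value passed the fold limit, at -1.08 and -1.14, when untreated replicate 2 or etoposide replicate 1 was left out.

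S100A12 passed the filter in 3 of the 10 cell lines. It rose in NOMO1, from 4.93, 5.75 and 4.21 CPM to 9.16, 16.5 and 9.96 CPM (log2 fold change 1.25, standard error 0.22, FDR 0.000447), without overlap, though the value was 0.92 and under the fold limit without etoposide replicate 2. In MONOMAC6 it was 24.2 CPM ± 1.40 and 24.1 ± 1.74 (-0.01, FDR 0.925), and in THP1 0.398 ± 0.245 and 0.811 ± 0.570 (1.04, FDR 0.144), a value that passed both limits at 1.67 without untreated replicate 3 and at 1.48 without etoposide replicate 2. MV411 had 0 reads untreated and 25 after etoposide, at least 6.90-fold higher, but was not tested. OCIAML3 had 9 and 46 reads.

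Among the broadly expressed members, S100A11 was higher by FDR in 10 of 10 cell lines but above the fold limit only in F36P. There it was read at 24.4, 23.3 and 21.7 CPM untreated and at 112, 114 and 114 CPM after etoposide (log2 fold change 2.29, standard error 0.11, FDR 8.95e-07). The lowest cell line for S100A11 thus came to lie within the range of the others. The remaining 9 log2 fold changes were between 0.28 in MONOMAC6 and 0.90 in THP1, where 232 CPM ± 8.32 stood against 434 ± 44.7. For NB4 (0.84) the value was 1.05 when scaled by library size alone, which called it.

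S100A6 rose in KASUMI1, from 1.17, 0.998 and 0.987 CPM to 9.71, 15.8 and 12.3 CPM (log2 fold change 3.57, standard error 0.23, FDR 1.82e-06), in MOLM13, from 53.0, 59.1 and 63.1 CPM to 125, 134 and 139 CPM (1.18, standard error 0.08), and in NB4, from 16.6, 20.3 and 16.8 CPM to 37.7, 42.8 and 44.5 CPM (1.22, standard error 0.12). None of these groups overlapped. It was higher by FDR alone in MONOMAC6, MV411, NOMO1 and OCIAML3 (0.42 to 0.82), and not in F36P, HL60 and THP1 (-0.03 to 0.29). THP1, with the highest S100A6, had 290 CPM ± 29.3 and 306 ± 53.7.

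S100A4 went in both directions. It rose in KASUMI1, from 30.2, 30.1 and 34.5 CPM to 108, 141 and 114 CPM (log2 fold change 1.93, standard error 0.12), and in NB4, from 161, 179 and 114 CPM to 314, 328 and 307 CPM (1.06, standard error 0.13), where it was 0.88 without untreated replicate 3. In F36P it was lower, from 48.3, 48.5 and 51.9 CPM to 21.7, 23.6 and 29.9 CPM (-0.98, standard error 0.14, FDR 0.000224). This value was just inside the fold limit and passed it with RLE normalization (-1.03), without a filter on low counts (-1.09), with DESeq2 (-1.03) and when any of the 3 untreated libraries or etoposide replicate 3 was left out (-1.02 to -1.14). It was not called with library size alone, a minimum of 5 CPM, edgeR's exact test, a replicate block or 1 fit of 60 libraries. S100A4 was also lower by FDR in NOMO1, 379 CPM ± 31.5 against 296 ± 20.4 (-0.36, FDR 0.00463). In HL60 it was 25.7, 17.3 and 26.7 CPM untreated and 40.1, 65.3 and 32.8 CPM after etoposide (0.99, FDR 0.00375), without overlap, and 7 alternatives put it above the fold limit. THP1 and OCIAML3 did not pass (-0.12 and 0.21).

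S100A10 passed the fold limit in no cell line. By FDR it was higher in F36P, MONOMAC6, MV411, NB4 and THP1 (0.38 to 0.73) and lower in NOMO1, 80.2 CPM ± 7.75 against 66.2 ± 1.32 (-0.28, FDR 0.0203). The largest value was in THP1, from 30.6, 39.3 and 33.7 CPM to 57.5, 58.7 and 55.6 CPM, without overlap. In KASUMI1, where S100A4 and S100A6 rose, S100A10 had 2 reads untreated and 6 after etoposide, a ratio of 2.94 with a 95% counting interval of 0.525 to 29.8.

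**Figure D4:**
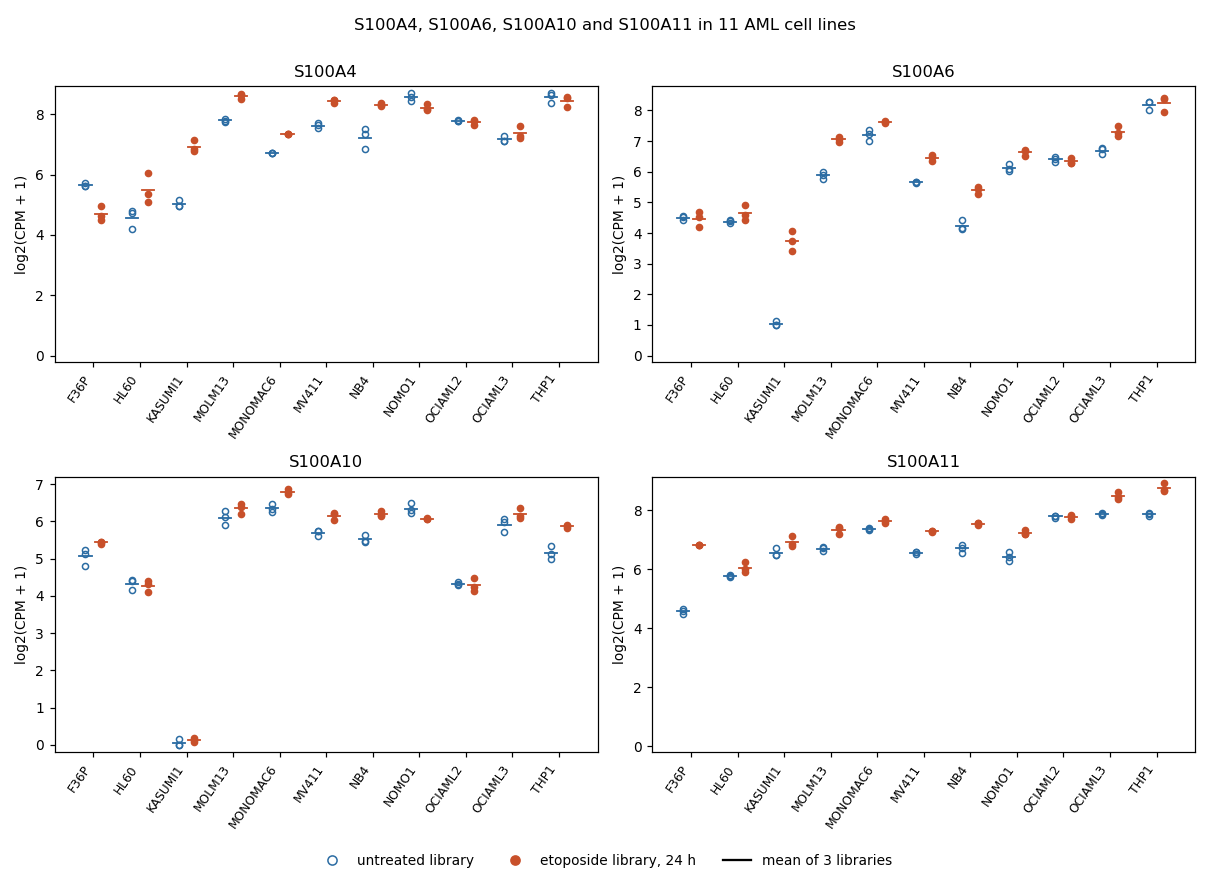
Level of S100A4, S100A6, S100A10 and S100A11 in each library as log2(CPM + 1), normalized within each cell line, with untreated (open) and etoposide-treated (filled) libraries and bars at the mean of 3. S100A11 in F36P moves from 23.1 to 113 CPM, S100A6 in KASUMI1 from 1.05 to 12.6 CPM, and S100A4 in F36P is at 49.6 CPM untreated and 25.1 CPM after etoposide.

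A common direction was asked with 1 value per cell line, the difference of mean log2 CPM (prior count 2), by limma over 10 cell lines. Of the 8 members 7 were higher on average at an FDR below 0.05, where 21.6% of all genes were called higher and 13.6% lower, and the median mean change of all genes was 0.12. S100A9 had a mean log2 change of 2.09 (standard error 0.49, FDR 0.00646; positive in 8 of 10 cell lines), S100P of 2.0 (standard error 0.48, FDR 0.00715; 8 of 10) and S100A8 of 1.95 (standard error 0.50, FDR 0.0105; 9 of 10). S100A6 (0.88; 10 of 10), S100A11 (0.81; 10 of 10), S100A12 (0.71; 7 of 10, with enough reads for its own test in 3) and S100A10 (0.38; 8 of 10) followed. S100A8 had enough reads for its own test in 8 of the 10 cell lines and S100A10 in 9, so their counts of positive cell lines include values from few reads. S100A4 did not pass, at 0.52 (standard error 0.23, FDR 0.0922; positive in 7 of 10 cell lines), with FDRs from 0.0193 to 0.202 over the alternatives. The FDR of S100A12 reached 0.0659 and that of S100A6 0.0663 in some alternatives, and the other 5 members stayed below 0.05 in each. For S100A6, F36P was positive when scaled over 60 libraries but was at -0.03 in its own fit. Without KASUMI1 the mean log2 change of S100A6 was 0.60.

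The change after etoposide differed between cell lines for all 8 members, by edgeR's quasi-likelihood F test of the interaction over 60 libraries. The FDR was at most 7.82e-07 for 7 members and 0.00170 for S100A12, and 74.5% of all genes were called. When the log2 change in each cell line was set against the mean change of the other 9, S100A9 lay below it in MONOMAC6 by a log2 difference of -2.59 (FDR 3.77e-13), in NOMO1 by -2.77 and in NB4 by -2.68, and above it in KASUMI1 by 2.71 (FDR 0.00294) and in MV411 by 2.48 (FDR 0.0171). S100A11 in F36P was above the others by 1.69 (FDR 1.13e-20), S100A6 in KASUMI1 by 3.02 and S100A4 in KASUMI1 by 1.62, while S100A4 in F36P was below by -1.63 (FDR 4.58e-12). For S100A9 the mean of the others includes F36P, with 1 untreated read. S100P, S100A8 and S100A12 are not compared in this way, since each had no untreated read in a cell line. By this contrast, with FDR alone, 33.5% of all genes were called in F36P, 17.1% in HL60, 30% in KASUMI1, 25% in MOLM13, 15.9% in MONOMAC6, 13.2% in MV411, 19.5% in NB4, 23.8% in NOMO1, 16.5% in OCIAML3 and 25.3% in THP1. It was chosen after seeing the data.

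Levels after etoposide were compared between cell lines as well. Over the 45 pairs of the 10 treated cell lines, S100A9 was called different in 41, S100A8 in 40, S100P in 37, S100A12 in 32, S100A6 in 31, S100A4 in 27, S100A11 in 20 and S100A10 in 19, where 39.8% of all gene and pair tests were called. The shares of S100A11 (44.4%) and S100A10 (42.2%) were near that of all tests.

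S100A8 and S100A9 serve as subunits of 1 complex, so their ratio was taken within each library, as reads per kilobase with 1 read added. The mean log2 ratio of S100A9 to S100A8 in untreated cells was 2.04 ± 0.06 (SD, n = 3) in MONOMAC6, 2.09 ± 0.10 in NOMO1, 2.85 ± 0.03 in OCIAML2, 1.63 ± 0.21 in THP1, 1.77 ± 0.09 in OCIAML3 and 0.40 ± 0.35 in MOLM13. These are the 6 cell lines with at least 100 reads of both genes in each untreated library, and S100A9 was the more abundant per kilobase in each. In MOLM13 this direction rests on the exon lengths used, since S100A8 had the higher mean CPM there (9.82 against 8.07). After etoposide the log2 ratio was 2.61 ± 0.14 in THP1, higher than in untreated cells, and 1.45 ± 0.30 in NOMO1, lower, with no overlap of 1 SD. In the 5 cell lines with at least 100 reads of both genes in each library the mean change of the log2 ratio was 0.18, and a two-sided exact sign-flip permutation test gave p = 0.5625, where the smallest p that 5 values allow is 0.0625. Over 10 cell lines the mean change was 0.08, positive in 5 of 10 (exact permutation p = 0.885). This value includes F36P, HL60, KASUMI1 and MV411, where an untreated library had 0 or 1 read of S100A8, so that the added read sets much of the ratio there.

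Other S100 genes had untreated levels of at most 8.97 CPM (S100A13 in NB4), though not below every member in each cell line. Of 12 (S100A1, S100A2, S100A3, S100A5, S100A7, S100A7A, S100A13, S100A14, S100A16, S100B, S100G, S100Z), 9 were tested in at least 1 cell line, and 22 of 32 tests were called induced and 0 repressed. Of these tests, 13 passed the filter only through etoposide libraries, and 10 of them were called, so this share is not set against that of all genes. S100A13 was induced in 7 cell lines, for example from 8.97 to 28.1 CPM in NB4 (log2 fold change 1.65), and S100B in 4, from 2.62 to 17.5 CPM in NB4 (2.74) and from 1.38 to 7.43 CPM in MV411 (2.42). S100A1 was induced in 4, and S100A2, S100A3, S100A5, S100A14 and S100Z in 1 or 2.

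Of 9 genes whose products bind S100 proteins or respond to them, 6 were called in some cell line, with 22 induced (25.3%) and 2 repressed (2.30%) of 87 tests, where the shares over all genes are 11.1% and 3.96%. CYBB, the catalytic subunit of the phagocyte NADPH oxidase, to which calprotectin delivers arachidonic acid, rose in 7 cell lines, and ANXA1, the partner of S100A11, in 6 (from 0.835 to 24.0 CPM in KASUMI1, log2 fold change 4.82). TLR4 rose in 4 and CD36 in 3. ANXA2 rose in F36P (1.06) and in NB4 (1.73), where S100A10 was higher by 0.38 and 0.69. AGER fell in MOLM13 (-1.19) and THP1 (-1.44). MYH9, ANXA6 and ANXA11 were called in none. Of 8 transcription factors known to act in myeloid cells (SPI1, CEBPA, CEBPB, CEBPD, CEBPE, STAT3, KLF4 and HIF1A), CEBPB was induced in 5 cell lines, KLF4 in 4, CEBPE in 4 and CEBPA in 1, while CEBPD and CEBPE were repressed in NB4. In all, 14 of 78 tests were induced (17.9%) and 2 repressed (2.56%), and 4 of the induced were tested through etoposide libraries.

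Markers of cell types were counted in the same way. Of 51 tests over 7 monocyte markers (CD14, LYZ, CSF1R, ITGAM, CD163, FCGR1A, CD68), 29 were induced (56.9%) and 2 repressed (3.92%), beside 11.1% and 3.96% of all tests. Of these tests, 7 passed the filter only through etoposide libraries, and 5 of them were called. Of 43 tests over 5 granule genes (MPO, ELANE, PRTN3, AZU1, CTSG) 0 were induced and 16 repressed. Calls of other types were made too, with 8 of 22 tests of lymphoid markers (4 of the 8 through etoposide libraries) and 8 of 16 tests of epithelial markers (2 of the 8) induced and 1 repressed in each. Of 70 tests of the 7 myeloid markers, which include LYZ and MPO, 9 were induced and 6 repressed. Of 24 tests of the 8 erythroid markers, 2 were induced and 3 repressed. In each of these 2 lists 1 induced call was made through etoposide libraries. In KASUMI1 the summed level of the monocyte markers was 83.0 to 91.3 CPM in untreated and 473 to 514 CPM in treated libraries, in OCIAML3 433 to 488 and 1437 to 1529 CPM, in MOLM13 1462 to 2296 and 4965 to 5981 CPM, in MV411 358 to 457 and 1017 to 1318 CPM, and in THP1 673 to 742 and 1161 to 1272 CPM. S100A8 and S100A9 rose in these 5 cell lines. In NB4, where neither was called, the sum was 66.6 to 69.4 and 137 to 141 CPM, and in NOMO1, where neither was called, 749.9 to 799 and 615 to 819.6 CPM. In MONOMAC6, where neither was called, 4 of 6 markers tested were induced (CD14, CSF1R, ITGAM, CD163) and FCGR1A was repressed, with a median log2 fold change of 1.36. The sum there, 4114 to 4480.3 CPM untreated and 3420.5 to 3819.8 CPM after etoposide, was mostly LYZ, at 4262 and 3419 CPM. Among the other markers of this list, the highest untreated mean in any cell line was 231 CPM (ITGAM in NOMO1). The untreated sum of MOLM13 was therefore mostly LYZ as well. In HL60 the sum was 6.81 to 9.23 and 14.4 to 22.3 CPM. F36P had CD163 at 0 CPM when untreated, and its sum was 186 to 196 and 311 to 349 CPM. The part of these markers in the S100 results was not tested.

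In OCIAML2, whose etoposide libraries the study discarded, all 8 members were tested and 0 were called, as was the case for 0% of all genes. Their log2 fold changes lay between -0.07 and 0.17, the lowest FDR was 0.998, and only S100A8 was below an unadjusted p of 0.05 in edgeR's test, at a log2 fold change of 0.16. CDKN1A was higher there by a log2 fold change of only 0.73.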

How the data were processed

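The authors isolated total RNA, prepared stranded mRNA libraries and, per the labels and their methods, mapped single-end reads with STAR 2.5.3a to GRCh38.p7 with gencode release 25. They deposited STAR's counts of reads per gene, 1 column per library without normalization, and used edgeR 3.20.1. The members and gene lists were chosen with earlier results of these data known. Of 58037 identifiers, 45 copies on chromosome Y without reads were left out, and 56948 of 57992 were named by gencode release 44. Of 716 genes that lie within an opposite-strand exon in gencode release 44, 470 have reads. A column counted by strand would give such reads, but the reads were counted with gencode release 25, so this was not settled.

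All further values, such as CPM and fold changes, are from these counts. Each cell line was fitted apart in R 4.3.3 with edgeR 4.0.16 (filterByExpr at 10 reads, or 15 in total, TMM, quasi-likelihood test, Benjamini-Hochberg adjustment over all genes tested), and a gene was called at an FDR below 0.05 and a fold above 2. CPM was scaled within the cell line for changes and over 33 untreated libraries for untreated levels. Interactions used 60 libraries, and mean changes limma 3.58.1 with 1 value per cell line. FDR stands for the adjusted p-value. Alternatives were RLE or no scaling beyond library size, other filters, edgeR's exact test, DESeq2 1.42.0, a joint fit, a replicate block, no fold limit, another prior count, and each library or cell line left out. Replicates differed by more than sampling noise (lowest chi-square per degree of freedom 2.05). In NB4, untreated and treated libraries with the same replicate number deviated weakly alike, at r of 0.15 to 0.26 in all 3 pairs. Whether the numbers mark pairs is not known. In no other cell line were all 3 correlations above 0.1. List genes called in a cell line or above 100 CPM untreated could be named. A gene of the monocyte marker list is not reported here, and the counts and sums leave it out. The steps were tested on simulated counts. Python 3.11.15 with numpy 2.4.6, pandas 2.3.3, scipy 1.17.1 and matplotlib 3.10.9 was used for tables and figures. The authors' tables of comparisons, read quality and protein levels were not analysed here.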

Additional observations from a re-analysis of the deposited data

Results flagged for a closer look

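The change after etoposide differed between the 10 cell lines for each of the 8 members, by edgeR's quasi-likelihood F test of the interaction of cell line and treatment, as it did for 74.5% of all genes. The F value was 64.4 for S100A9, 57.1 for S100P, 40.5 for S100A11, 35.2 for S100A6, 31.3 for S100A4, 28.1 for S100A8, 8.07 for S100A10 and 4.11 for S100A12. For S100A12 the FDR was 0.10 without replicate 1. Among the changes of a member over cell lines, the log2 fold change of 3.57 for S100A6 in KASUMI1 and of 2.29 for S100A11 in F36P lay far above those of the other cell lines by Dixon's test, which chance alone passes in about 1 of 20 groups.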

How the results depend on the processing

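The 26 inductions of members in 10 cell lines became 51 without the fold minimum, and the 0 repressed became 4. With RLE normalization, without a filter on low counts and with DESeq2 the repressed count was 1, and it was 0 to 2 when 1 library was left out in turn. S100A4 in F36P and S100P in MOLM13 are the members concerned. The replicate number as a block left 26 induced and 0 repressed, and in NB4, where libraries with the same number deviated weakly alike, it changed no call. Scaling by library size alone raised the median log2 fold change of all genes by 0.25 in F36P, by 0.21 in NB4 and by 0.17 in KASUMI1. That scaling gave a positive value to members that were not called, S100A6 in F36P (0.22), S100A12 (0.11) and S100A8 (0.086) in MONOMAC6, S100A9 in NB4 (0.10), S100A10 (0.049) and S100P (0.037) in HL60, and S100A11 in OCIAML2 (0.0038). S100A6 in F36P was also positive with a minimum of 5 CPM (0.13) and in 1 fit of 60 libraries (0.018), S100A12 in MONOMAC6 with that minimum (0.0019), and S100P in OCIAML2 was negative without a filter (-0.00080). With 1 library left out in turn, uncalled values that changed sign ranged from -0.12 to 0.050 (S100A10 in HL60), -0.20 to 0.16 (S100P in HL60), -0.15 to 0.10 (S100A6 in F36P), -0.065 to 0.033 (S100A12 in MONOMAC6) and -0.32 to 0.12 (S100A9 in NB4), and in OCIAML2 from -0.15 to 0.030 (S100A10), -0.041 to 0.038 (S100A11), -0.078 to 0.0054 (S100A4), -0.0039 to 0.098 (S100A9) and -0.039 to 0.051 (S100P). The mean change of the log2 ratio of S100A9 to S100A8 was -0.020 with 0.5 reads added and ranged from -0.037 to 0.18 with 1 replicate left out. Of 1216 values of members in a cell line or on average, 1145 kept their direction and side of the threshold, 29 newly passed it, 14 no longer did and 28 changed sign. Few reads limit S100A12, and S100A8 and S100P in the low cell lines.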
